A study of Mus musculus with 8 samples.

Results

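The proteins that make microRNAs and silence their targets were followed through 8 mouse genes: Drosha, Dgcr8, Xpo5, Dicer1, Tarbp2, Prkra, Ago1 and Ago2. They were taken as every non-control probe whose gene name on the array was one of these symbols or Eif2c1 or Eif2c2, the older names of Ago1 and Ago2. This gave 11 probes for the 8 genes, out of 55681 probes on the array, and all 11 were well above background on all 8 arrays. The cells were the mouse pre-B cell line 1676, which lacks the adaptor proteins SLP-65 and LAT (SLP-65-/- LAT-/-) in every group. They carried a retroviral control vector or a vector for hsa-miR-125b-1 and had been selected with puromycin at 1 µg/ml, in medium with 7.5% FCS. IL-7, the growth factor of B cell precursors, was either supplied in excess from the supernatant of J558L cells or left out for 24 h. The 4 groups were thus control cells with IL-7, miR-125b cells with IL-7, control cells without IL-7 and miR-125b cells without IL-7. Each had 2 arrays, and per the series' description each repetition used cell clones made separately, so a group stands on 2 clones of 1 line.

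A microRNA begins as part of a longer transcript, from which Drosha and its RNA-binding partner Dgcr8 cut a hairpin in the nucleus. Exportin-5, the product of Xpo5, carries the hairpin to the cytoplasm, where Dicer, held by the double-stranded RNA-binding proteins TRBP (Tarbp2) and PACT (Prkra), cuts it to a short duplex. One strand is loaded into an Argonaute protein, which then represses mRNAs that pair with the microRNA's seed. In developing B cells the pathway is known to be needed for survival at the step from pro-B to pre-B cell.

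The mature microRNA named by the vector is given here in the mouse reference sequence (RefSeq, GRCm38.p6, the copy at chromosome 9, 41581940-41581961, plus strand), with the seed, bases 2 to 8, in capitals.
miR-125b-5p: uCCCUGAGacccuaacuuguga
The 7 letters that pair with this seed, CTCAGGG in DNA, occurred in none of the 11 probe sequences of the 8 genes, each of 60 bases, and in 0.44% of the 55681 probe sequences. The probes cover only a small part of each transcript, so this describes the probes and not the mRNAs.

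Levels are log2 spot signals after the 75th percentile of each array was subtracted, so a value of 0 lies at that percentile. Values of one probe can be compared between arrays, and values of different probes cannot be set against each other. Between 47.7% and 54.8% of the probes were well above background on an array, no spot was saturated, and the 2 arrays of a group correlated at r = 0.994 to 0.996 across 20635 genes. The pre-B cell markers Cd79a, Cd79b, Vpreb1, Igll1, Ebf1 and Pax5 were well above background on all 8 arrays. Of the markers of other cells, 2 of 5 myeloid genes, 3 of 5 T and NK genes, 1 of 4 erythroid and 0 of 4 stromal genes were so on all 8 arrays, with Itgam as the highest at 3.14 to 3.67. Among T and NK genes Cd3e, Cd4 and Klrb1c were above background on all 8 arrays, Cd8a on 4 and Cd3d on 0. Of the stromal genes Col1a2 was so on 7 arrays and Col1a1, Dcn and Pdgfrb on 0. What part these markers' cells had in any result was not tested. The 4 arrays with IL-7 were on slide 1 and the 4 without on slide 2, each scanned separately and read with its own version of Feature Extraction. Slide, scan and IL-7 withdrawal therefore cannot be told apart. Each comparison of the 2 vectors lies within 1 slide, but on each slide the control samples occupied columns 1 and 2 at most and the others columns 3 and 4 at most. The vector's effect and that of the position on the slide cannot be told apart either. In these bulk samples a change in every cell cannot be told apart from a change in a share of the cells.

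The 2 Argonautes moved in opposite directions with the vector. In miR-125b cells Ago1 was 1.51-fold higher and Ago2 was at 0.749 of the control level (averages over both IL-7 conditions), each at 1 of its 2 probes. The other probe of each did not pass, at 1.26-fold for Ago1 and 0.937 of control for Ago2, and neither gene passed the test on IL-7 withdrawal. Of the 6 genes that make and export microRNAs, only Tarbp2, a Dicer partner, passed for the vector, at 1.22-fold. On withdrawal of IL-7, Xpo5, Tarbp2, Prkra and Dgcr8 fell. Xpo5 fell most of the 8, to 0.518 of its level in control cells and 0.566 in miR-125b cells. Drosha and Dicer1, the 2 cutting enzymes, passed in no comparison at the probe chosen for each.

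**Figure D1:**
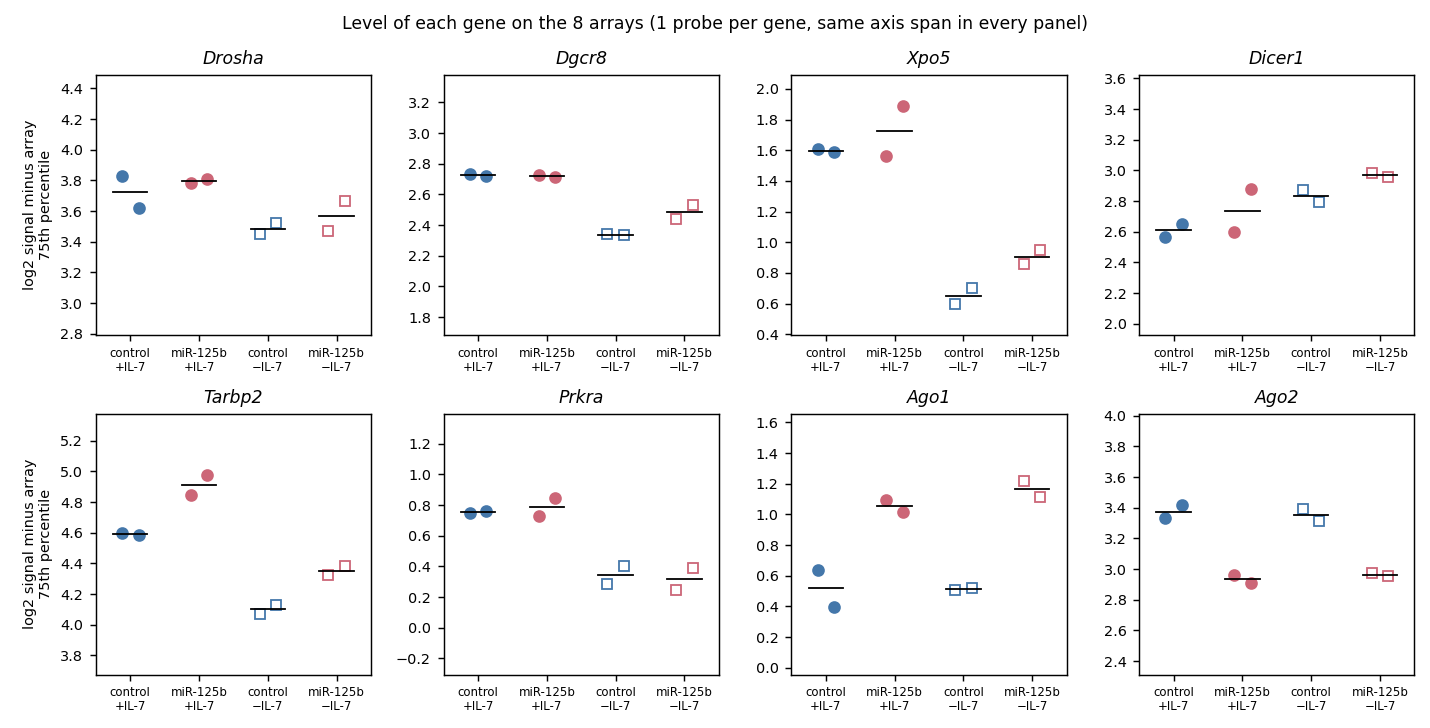
Level of the 8 genes on each of the 8 arrays, 1 probe per gene, as log2 signal minus the array's 75th percentile (vertical axis) by group (horizontal axis). Points are arrays, the line is the group mean, circles are with IL-7 and squares without, blue is control and red is miR-125b. The vertical axis spans the same number of log2 units in each panel but starts at a different level. Ago1 and Ago2 separate by vector in opposite directions, and Xpo5, Tarbp2, Prkra and Dgcr8 are lower without IL-7.

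Across all genes tested with limma at a Benjamini-Hochberg adjusted p under 0.05, the miR-125b vector with IL-7 changed 2.61% of genes and 1 of the 8 members (Ago2). Without IL-7 it changed 6.48% of genes and 2 of 8 (Ago1 and Ago2). Averaged over both conditions, 7.26% of genes were higher in miR-125b cells, among them 2 of the 8 (Ago1 and Tarbp2), and 8.58% were lower, among them 1 (Ago2). On withdrawal in control cells 34.1% of genes fell, among them 4 of the 8, and 20.0% rose, among them none. In miR-125b cells 32.1% fell, again 4 of the 8, and 20.3% rose, none of the 8. Against a background in which 34.1% and 32.1% of all genes fell, 4 of 8 does not by itself set the machinery apart. The median change of the 8 genes was -0.32 on withdrawal in control cells and -0.23 in miR-125b cells, against -0.13 and -0.11 over all genes. For the vector average it was 0.10 against -0.03 over all genes. The difference of the withdrawal response between the vectors passed for 0% of genes and none of the 8, with 1213 of 20635 genes at an unadjusted p under 0.05. Scaling each array to its median in place of the 75th percentile moved the median withdrawal change of all genes in control cells from -0.13 to -0.47 and the vector average from -0.03 to 0.13. The share of called genes that were higher went with it, from 37% to 16.5% for withdrawal in control cells and from 45.8% to 78.8% for the vector average, so small changes below are relative to the scale used.

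**Figure D2:**
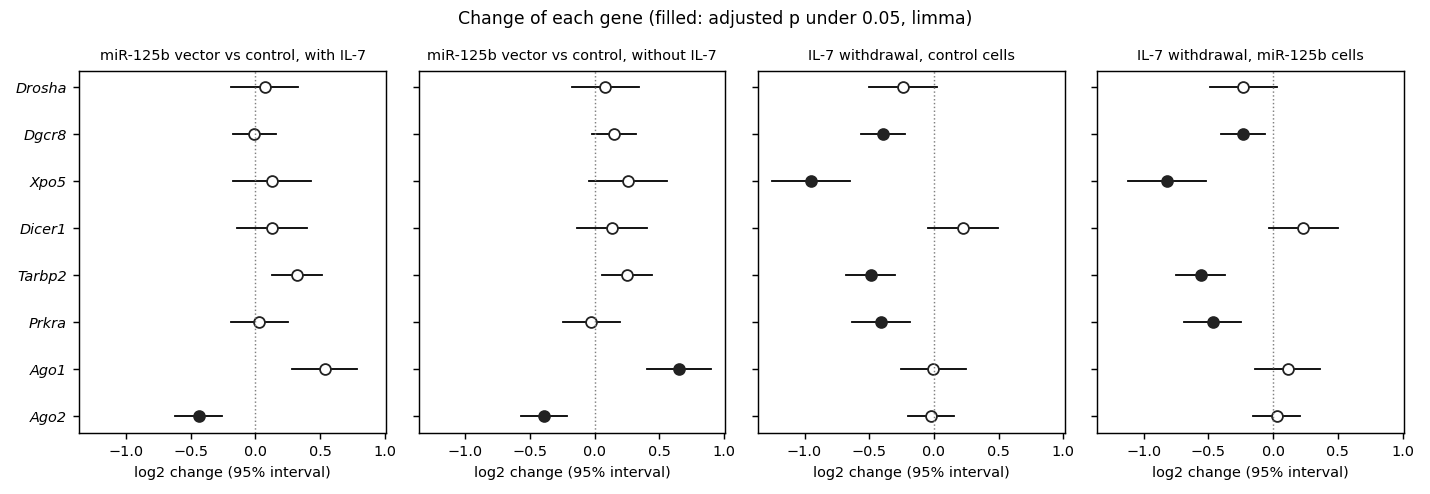
Log2 change of each of the 8 genes (horizontal axis) with its 95% interval in 4 comparisons, from limma on all 20635 genes. Filled points passed an adjusted p under 0.05. Ago2 lies below 0 and Ago1 above 0 in both vector comparisons, and the intervals of Dgcr8, Xpo5, Tarbp2 and Prkra lie below 0 in both withdrawal comparisons.

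Drosha, the nuclease that opens the pathway, was measured by 2 probes 197 bases apart on chromosome 15 (mm9, 12864767-12864826 and 12864964-12865023, plus strand). At the brighter, upstream probe the 2 control arrays with IL-7 read 3.83 and 3.62 and the miR-125b arrays 3.78 and 3.81. Without IL-7 the control arrays read 3.45 and 3.52 and the miR-125b arrays 3.47 and 3.66. The vector groups overlapped in both conditions, and only the highest array without IL-7 reached the range seen with IL-7. The withdrawal changes were -0.24 (SE 0.11, limma adjusted p = 0.101) in control cells and -0.23 (SE 0.11, adjusted p = 0.116) in miR-125b cells. At the downstream probe they were -0.35 and -0.34, and these passed in a limma fit of every kept probe (adjusted p = 0.0448 and 0.0473), in which 51.1% and 49.2% of all probes were called. The 2 Drosha probes did not differ from each other beyond their error in withdrawal (limma diffSplice, adjusted p = 0.688 in control cells and 0.676 in miR-125b cells). With each array scaled to its median, the upstream probe passed too, at -0.58 and -0.49. These were the largest falls over the 20 alternative settings. The smallest were -0.07 in control cells and -0.04 in miR-125b cells. For the vector average the change was 0.08 (95% interval -0.11 to 0.26).

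Dgcr8, the partner that recognises the hairpin for Drosha, had 1 probe (chromosome 16, 18254226-18254285, minus strand). It read 2.73 and 2.72 in control cells and 2.73 and 2.71 in miR-125b cells with IL-7, and 2.34 and 2.33 against 2.44 and 2.53 without. All 4 arrays without IL-7 lay below all 4 with it, and without IL-7 the miR-125b arrays lay above the control arrays. Dgcr8 fell by 0.39 (SE 0.07, limma adjusted p = 0.00563) in control cells and by 0.23 (SE 0.07, adjusted p = 0.0334) in miR-125b cells. The second of these calls was lost in 12 of 20 alternative settings, the lowest size being -0.10 under quantile normalization. They include the omission of either miR-125b array with IL-7 or of any of the 4 arrays without, which gave -0.18 to -0.28. The difference between the 2 falls was 0.16 (SE 0.10) and did not pass (adjusted p = 0.957), nor did the vector change without IL-7, at 0.15 (95% interval -0.02 to 0.32).

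Xpo5 encodes exportin-5 and was measured by 1 probe (chromosome 17, 46378755-46378814, plus strand). The control arrays read 1.61 and 1.59 with IL-7 and 0.60 and 0.70 without. The miR-125b arrays read 1.56 and 1.89 with IL-7 and 0.86 and 0.95 without. The lowest array with IL-7 was thus far above the highest without it. Xpo5 fell by 0.95 (SE 0.12, limma adjusted p = 0.00238) in control cells and by 0.82 (SE 0.12, adjusted p = 0.00404) in miR-125b cells, and both calls held in each of the 20 alternative settings, at -0.85 to -1.29 and -0.66 to -1.08. Without IL-7 both miR-125b arrays lay above both control arrays, by 0.26 on average (95% interval -0.05 to 0.56), which did not pass (adjusted p = 0.263). The difference of the 2 withdrawal responses was 0.13 (95% interval -0.30 to 0.56).

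Dicer1 encodes the enzyme that cuts the exported hairpin, and its 1 probe (chromosome 12, 105926064-105926123, minus strand) was the only one of the 8 chosen probes whose mean was higher without IL-7 in both cell types by over 0.2. With IL-7 it read 2.57 and 2.65 in control cells and 2.60 and 2.88 in miR-125b cells, and without IL-7 2.87 and 2.80 against 2.98 and 2.96. Within each cell type the 2 conditions did not overlap. Across cell types they did, since 1 miR-125b array with IL-7, at 2.88, reached the control values without IL-7. The withdrawal changes were 0.23 in both control cells (95% interval -0.04 to 0.50) and miR-125b cells (-0.03 to 0.50), and neither passed (limma adjusted p = 0.127 and 0.12). The direction depends on the scale: the changes were -0.11 and -0.03 with median scaling, and 0.36 and 0.39 with quantile normalization, where both passed. Without the second miR-125b array with IL-7, the rise in miR-125b cells was 0.37 and passed (adjusted p = 0.038). The vector average was 0.13 (95% interval -0.06 to 0.32).

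Tarbp2, which encodes the Dicer partner TRBP, was the one gene of the 8 called for both vector and withdrawal. Its probe (chromosome 15, 102353974-102354033, plus strand) read 4.60 and 4.59 in control cells with IL-7 and 4.85 and 4.98 in miR-125b cells. Without IL-7 the values were 4.07 and 4.13 in control cells and 4.32 and 4.38 in miR-125b cells. None of the 4 groups overlapped another. Tarbp2 fell on withdrawal by 0.49 (SE 0.08, limma adjusted p = 0.00406) in control cells and by 0.56 (SE 0.08, adjusted p = 0.00329) in miR-125b cells. Both calls held in each of 20 alternative settings, at -0.24 to -0.83 and -0.28 to -0.82. The vector difference was 0.32 with IL-7 and 0.25 without, each short of the threshold (adjusted p = 0.0955 and 0.118). Their average rose by 0.29 (SE 0.05) and passed (adjusted p = 0.0243). This last call was lost in 8 of 19 alternative settings, with values of 0.25 to 0.30: without the filter on dim probes, and on leaving out any single array except the first miR-125b array with IL-7.

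Prkra, which encodes PACT, the other double-stranded RNA-binding partner of Dicer, had 1 probe (chromosome 2, 76468199-76468258, minus strand). It read 0.75 and 0.76 in control cells and 0.73 and 0.84 in miR-125b cells with IL-7, and 0.28 and 0.41 against 0.25 and 0.39 without. Withdrawal separated the arrays completely, whereas the vector groups overlapped in both conditions. Prkra fell by 0.41 (SE 0.09, limma adjusted p = 0.012) in control cells and by 0.47 (SE 0.09, adjusted p = 0.00836) in miR-125b cells. Each call was lost in 1 of 20 alternative settings: without the first control array without IL-7 the fall in control cells was -0.35 (adjusted p = 0.0762), and without the first miR-125b array without IL-7 the fall in miR-125b cells was -0.40 (adjusted p = 0.0506). The vector average was 0.00 (95% interval -0.15 to 0.16).

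Ago1, one of the 4 mouse Argonautes, was measured by 2 probes 4558 bases apart on the minus strand of chromosome 4 (126112644-126112703 and 126117202-126117261). The downstream, brighter probe read 0.64 and 0.40 in control cells with IL-7 and 1.09 and 1.01 in miR-125b cells. Without IL-7 it read 0.51 and 0.52 in control cells and 1.21 and 1.12 in miR-125b cells. All 4 miR-125b arrays lay above all 4 control arrays. Ago1 rose by 0.65 (SE 0.10, limma adjusted p = 0.0277) without IL-7, and the difference with IL-7 was 0.54 (SE 0.10, adjusted p = 0.0606). The average rose by 0.59 (SE 0.07, adjusted p = 0.00807), a call that held in all 19 alternative settings at 0.46 to 0.74. The call without IL-7 was lost in 6 of 20 settings, with adjusted p = 0.0962 to 0.145 on leaving out any 1 of the 4 arrays without IL-7. On withdrawal its level moved by 0.00 (95% interval -0.25 to 0.25) in control cells and by 0.11 (-0.14 to 0.36) in miR-125b cells.

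The upstream Ago1 probe was much dimmer, with signals of 40.5 to 122 against 428 to 1568 for the downstream one. It read -3.06 and -2.96 in control cells and -2.82 and -3.00 in miR-125b cells with IL-7, so the vector groups overlapped there. Without IL-7 it read -3.20 and -3.15 in control cells and -2.48 and -2.73 in miR-125b cells, with no overlap. In the limma fit of every kept probe its vector change was 0.10 with IL-7 (adjusted p = 0.686), 0.57 without (adjusted p = 0.0558) and 0.34 on average (adjusted p = 0.0523). The downstream probe passed in that fit without IL-7 (adjusted p = 0.0335) and on average (adjusted p = 0.01), where 4.78% and 13.9% of all probes were called. The gap between the 2 Ago1 probes in the average, 0.26, did not pass (limma diffSplice, adjusted p = 0.389, against 1.26% of 15185 probes called).

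Ago2 encodes the Argonaute that can itself cut a well paired target, and its 2 probes lie 1158 bases apart on the minus strand of chromosome 15 (72935705-72935764 and 72936863-72936922). The downstream, brighter probe read 3.34 and 3.42 in control cells with IL-7 and 2.96 and 2.91 in miR-125b cells. Without IL-7 it read 3.39 and 3.32 in control cells and 2.97 and 2.95 in miR-125b cells. All 4 miR-125b arrays lay below all 4 control arrays, and the gap between them was wider than the difference within any group. Ago2 fell by 0.44 with IL-7 (SE 0.07, limma adjusted p = 0.0467), by 0.39 without (SE 0.07, adjusted p = 0.0384) and by 0.42 on average (SE 0.05, adjusted p = 0.0085). On withdrawal it moved by -0.02 (95% interval -0.20 to 0.16) in control cells and by 0.03 (-0.15 to 0.21) in miR-125b cells. The call with IL-7 was lost in 17 of 20 alternative settings and the one without IL-7 in 16, among them the omission of any 1 of the 8 arrays, with values of -0.40 to -0.48 and -0.35 to -0.43. The average held in 17 of 19, and fell short with median scaling, at -0.27 (adjusted p = 0.0757).

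The second exception was the choice of probe, and the upstream Ago2 probe did not show the fall. It read 2.88 and 2.83 in control cells and 2.65 and 2.91 in miR-125b cells with IL-7, and 3.05 and 3.02 against 2.82 and 3.03 without. In both conditions the first miR-125b array was low and the second lay within or above the control values. Its average vector change was -0.09 (95% interval -0.30 to 0.11, limma adjusted p = 0.491). The gap between the 2 Ago2 probes, 0.32, had an unadjusted p of 0.007 and did not pass over all probes (limma diffSplice, adjusted p = 0.176). A further pair of probes, named 2310051F07Rik and 1110029L17Rik on the array, lie 7975 and 10496 bases downstream of the upstream Ago2 probe on the same strand, and RefSeq lists both names as synonyms of Ago2. They were no members by the naming rule and were added after their values were seen. Their average vector changes were 0.00 and -0.03, and their withdrawal changes were 0.39 and 0.63 in control cells and 0.47 and 0.58 in miR-125b cells. With the brighter of these standing for Ago2, the vector average was -0.03 (adjusted p = 0.878) and the withdrawal change in control cells was 0.63 (adjusted p = 0.0128). The fall of Ago2 in miR-125b cells thus rests on 1 of its 2 probes and was not seen at the 2 downstream ones.

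**Figure D3:**
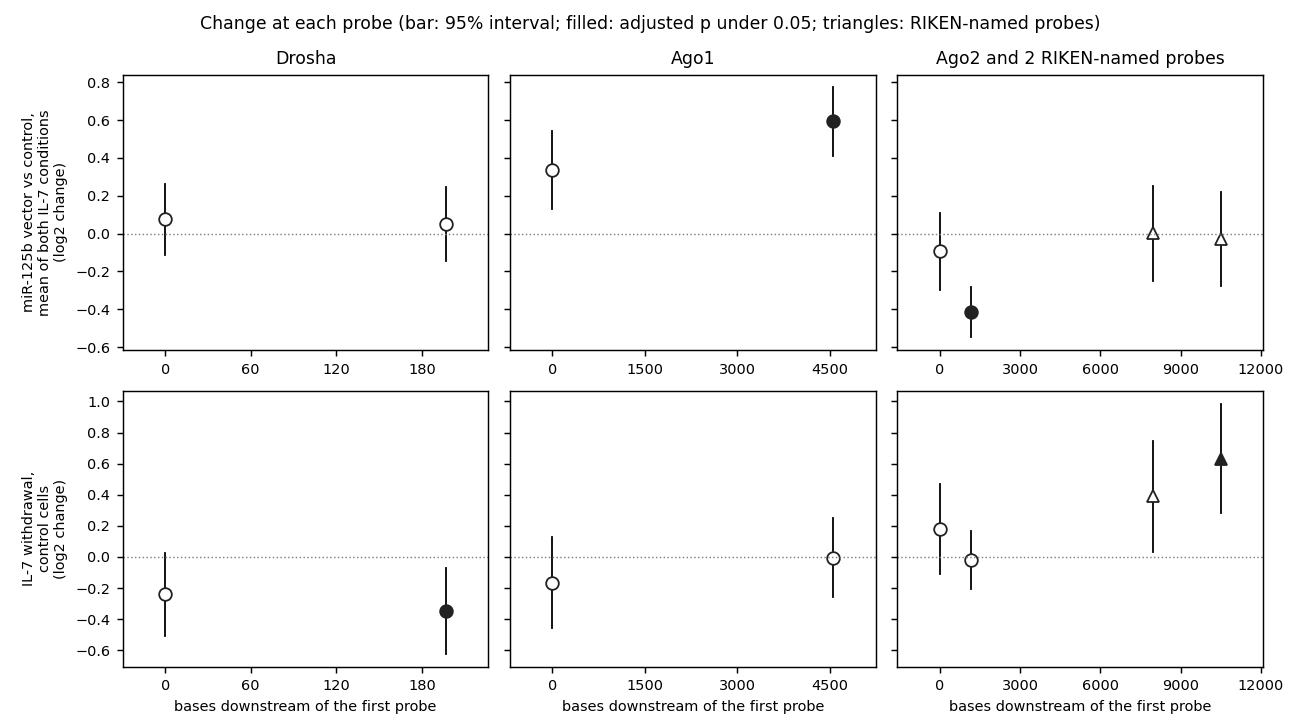
Log2 change at each probe of the 3 genes with more than 1 probe (vertical axis, with 95% interval) against its distance in bases from the most upstream probe (horizontal axis). The upper row is the vector average and the lower row IL-7 withdrawal in control cells. Filled points passed an adjusted p under 0.05 in a fit of every kept probe, and triangles are the 2 RIKEN-named probes. In the upper row the Ago2 probe at 1158 bases stands at -0.42 while the other 3 lie between -0.09 and 0.00.

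The other 2 Argonautes, Ago3 and Ago4, neighbour Ago1 on chromosome 4 in the RefSeq gene table, in the order Ago3, Ago1, Ago4. Both passed for IL-7 withdrawal, which cannot be told apart from slide. Ago4 read -1.19 and -1.20 in control and -0.94 and -1.58 in miR-125b cells with IL-7, and between -0.22 and -0.09 on the 4 arrays without. Every array without IL-7 was above every array with it. Ago4 rose by 1.02 (SE 0.20, limma adjusted p = 0.00821) in control cells and by 1.13 (adjusted p = 0.00646) in miR-125b cells. Ago3, close to background at -4.82 to -3.32, rose by 0.85 and 1.02 (adjusted p = 0.0224 and 0.0127), but turned to -0.11 and -0.07 after normexp background correction. Neither passed in a comparison of the vectors. The averages were -0.20 for Ago3 (95% interval -0.59 to 0.19) and -0.01 for Ago4 (-0.36 to 0.34), so moderate changes could be missed. For Ago1, between them on the chromosome, the withdrawal change in control cells was 0.00.

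Beyond these, 60 of 62 other genes of the pathway, in 9 lists, could be tested, and the remaining 2, Lin28b and Trim71, did not pass the filter on dim probes. In control cells 12 of the 60 rose and 23 fell on withdrawal, and in miR-125b cells 12 rose and 19 fell. Over all genes 20.0% rose and 34.1% fell in control cells and 20.3% and 32.1% in miR-125b cells, so the lists together lay near that background. Their median change was -0.15 and -0.12, against -0.13 and -0.11 over all genes. The most uniform list was the chaperones that help load Argonautes: 6 of 6 fell in both cell types, with a median of -0.83 in control cells, although Hspa8 turned to 0.06 in control cells and 0.14 in miR-125b cells in the deposited value table. Stip1 fell by 1.12 and 1.05, Hsp90ab1 by 1.07 and 0.92, and Ptges3, the HSP90 co-chaperone p23, by 0.83 and 0.62. In the deposited table Hsp90ab1 was smaller, at -0.38 and -0.29, and so was Ptges3, at -0.46 and -0.22. Of the 3 GW182 scaffold proteins, which link Argonautes to deadenylases, Tnrc6b rose by 0.36 and 0.53 and Tnrc6c by 0.64 and 0.50. With median scaling these were 0.02 and 0.27 for Tnrc6b and 0.30 and 0.24 for Tnrc6c.

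Among the 10 partners of the microprocessor, 5 fell in control cells. Khsrp, an RNA-binding protein that promotes the processing of some precursors, fell by 1.25 (SE 0.11, limma adjusted p = 0.00142) and by 1.05 in miR-125b cells, while its second probe gave -0.40 and -0.46. Ran, the GTPase that exportin-5 works with, fell by 0.73 and 0.66, but was at -0.03 and -0.02 in the deposited value table. Of the 7 proteins associated with the silencing complex 4 fell in each cell type, led by Gemin4 at -1.21 and -1.24 and the helicase Mov10 at -0.80 and -0.66. In miR-125b cells 1 of them, Fmr1, rose by 0.26 (limma adjusted p = 0.022), which was -0.005 with median scaling. Of the 9 tested genes of precursor regulation and turnover, 3 rose and 3 fell in control cells, and 3 rose and 2 fell in miR-125b cells. Those that rose were the uridyl transferases Tut4 (0.38 and 0.32) and Tut7 (0.50 and 0.37) and Zswim8 (0.77 and 0.67), a ubiquitin ligase subunit known for target-directed microRNA decay. With median scaling Tut4 was at 0.04 and 0.06, Tut7 at 0.16 and 0.11 and Zswim8 at 0.43 and 0.41. In the same list Parn fell by 0.45 and 0.37 and Dis3l2 by 0.24 and 0.39, and Xrn2 fell by 0.31 in control cells. In control cells Dis3l2 came to -0.04 and Xrn2 to -0.10 at the least of the 4 other scalings. The 12 deadenylase genes split, with 3 up and 3 down in control cells and 2 up and 1 down in miR-125b cells. Pan3 rose by 0.47 and 0.40, or 0.13 and 0.13 with median scaling, and Cnot10 fell by 0.47 and 0.39. Of 9 decapping and decay genes 1 rose in each cell type, while 1 fell in control cells and 3 in miR-125b cells. The helicase Ddx6 rose by 0.29 and 0.37, which became -0.06 and 0.10 with median scaling. Eif4enif1 fell by 0.33 and 0.32, and in miR-125b cells Edc3 fell by 0.28 and Edc4 by 0.24, the last turning to 0.04 at the highest of the 4 other scalings.

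For the vector average, 3 of the 60 were higher and 8 lower in miR-125b cells, where 7.26% of all genes were higher and 8.58% lower. The scaling that moved the split of all called genes from 45.8% to 78.8% higher bears on these counts too. Mov10 read 2.38 and 2.20 in control and 2.89 and 3.17 in miR-125b cells with IL-7, and 1.46 and 1.52 against 2.34 and 2.41 without. It was higher on each miR-125b array than on either control array of the same condition, by 0.81 on average (SE 0.09, limma adjusted p = 0.00585). Gemin4 rose by 0.51 (adjusted p = 0.0361) and Parn by 0.30 (adjusted p = 0.0137). Both also fell on withdrawal, as Mov10 did. Cnot6, a catalytic deadenylase subunit, fell by 0.50 (SE 0.06, adjusted p = 0.00802), and its 3 probes ranged from -0.50 to -0.47. Fmr1, which encodes the RNA-binding protein FMRP, fell by 0.47 (adjusted p = 0.00537), with -0.60 to -0.47 over 3 probes. Of the 9 tested genes of precursor regulation and turnover 5 were lower: Dis3l2 by 0.42, Tut4 by 0.41, Eri1 by 0.38, Tut7 by 0.28 and Zswim8 by 0.23. With median scaling these 5 kept their sign and were smaller, at -0.27, -0.26, -0.23, -0.13 and -0.08. None of the chaperones, GW182 proteins or microprocessor partners passed.

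**Figure D4:**
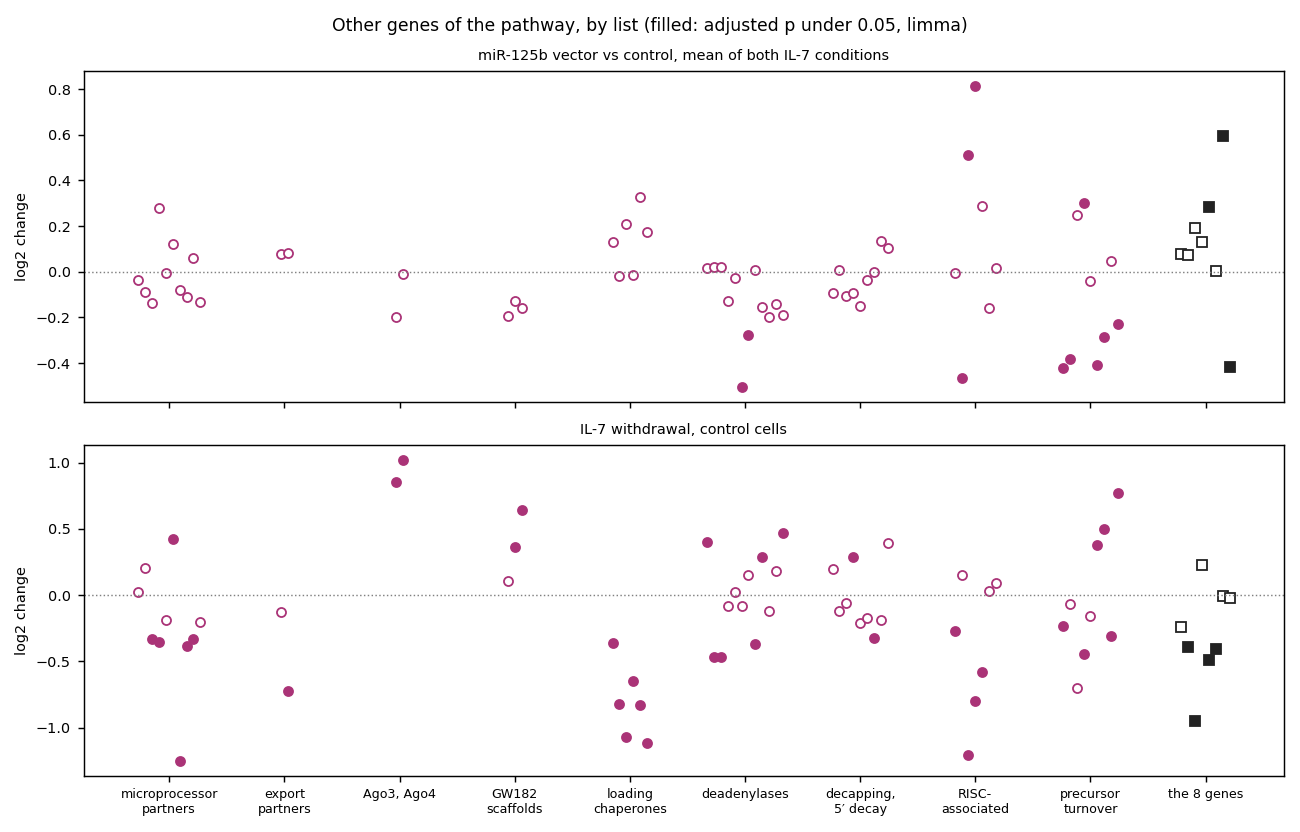
Log2 change (vertical axis) of the 60 other pathway genes, grouped by list (horizontal axis), and of the 8 genes (squares), for the vector average and for IL-7 withdrawal in control cells. Filled symbols passed an adjusted p under 0.05. The 6 loading chaperones all lie below 0 on withdrawal, and Ago3 and Ago4 lie near 1.

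The promoters of 7 of the 8 genes, taken as the 250 bases before the RefSeq start (GRCm38.p6), were searched on both strands for 4 short motifs. Those of 3 genes are shown. Xpo5 fell most of the 8 on withdrawal, Tarbp2 was called for both vector and withdrawal, and Ago1 was higher in miR-125b cells. The Xpo5 promoter (chromosome 17, 46202561-46202810, plus strand) holds the NRF1 core GCATGCG at 2 places, on both strands and overlapping at each, as the capitals mark. The Tarbp2 promoter (chromosome 15, 102517942-102518191, plus strand) holds 3 copies of the CCAAT box, ATTGG or its reverse complement. It also holds 1 match to the NRF1 core near the gene's start (all in capitals). The first Ago1 promoter (chromosome 4, 126468632-126468881, minus strand) holds 1 CCAAT box, in capitals, and no NRF1 core.
Xpo5: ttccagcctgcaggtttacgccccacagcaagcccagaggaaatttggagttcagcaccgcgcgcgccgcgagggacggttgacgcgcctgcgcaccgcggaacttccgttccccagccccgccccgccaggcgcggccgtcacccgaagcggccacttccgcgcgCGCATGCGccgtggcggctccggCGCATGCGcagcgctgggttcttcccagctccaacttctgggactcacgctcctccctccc
Tarbp2: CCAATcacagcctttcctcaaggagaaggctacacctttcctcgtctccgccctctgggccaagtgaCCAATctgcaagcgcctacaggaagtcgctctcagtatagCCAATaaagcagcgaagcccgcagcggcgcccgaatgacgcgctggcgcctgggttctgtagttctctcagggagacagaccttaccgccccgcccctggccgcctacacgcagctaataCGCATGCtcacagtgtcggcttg
Ago1: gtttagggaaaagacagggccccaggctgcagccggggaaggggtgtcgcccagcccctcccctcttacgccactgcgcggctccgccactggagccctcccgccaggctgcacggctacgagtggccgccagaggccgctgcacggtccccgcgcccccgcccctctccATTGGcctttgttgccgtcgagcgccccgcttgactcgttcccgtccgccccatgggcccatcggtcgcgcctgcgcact
GCATGCG occurred in 3.02% of 32851 promoters of this length and in 2 of the 7 genes, Xpo5 and Tarbp2. ATTGG occurred in 33.8% of promoters and in 5 of the 7 (Ago1, Dgcr8, Dicer1, Drosha and Tarbp2), which includes genes that fell on withdrawal and genes that did not pass. The E-box CACGTG, in 6.02% of promoters, was in none of the 7, and CTTCCGG, an ETS core in 6.91%, was in Drosha. The percentages count single promoters, whereas a gene was counted if any of its promoters held the motif, and Ago1 had 2. These are matches of letters in a fixed window, not measured binding sites.

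The genes whose levels ran most like those of the called members over the 8 arrays are given as a description, since the arrays share the 2 factors. Closest to Ago1 were Golm2 (r = 0.986) and Sh3bp2 (r = 0.986), and closest to Ago2 were Tube1 (r = 0.988) and Bmp4 (r = 0.981). Only 68 and 77 of 14766 named genes reached r above 0.95 with Ago1 and Ago2. For Xpo5 the closest were Gm6322 (r = 0.997) and Gm11214 (r = 0.997), for Tarbp2 Apoe (r = 0.998) and Polr1c (r = 0.996), for Prkra Slc35b1 (r = 0.997) and Tm7sf3 (r = 0.997), and for Dgcr8 Lypd5 (r = 0.992) and Snapc2 (r = 0.992). Between 804 and 1895 genes reached r above 0.95 with these 4. All 4 were lower without IL-7, where slide and withdrawal cannot be told apart.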

How the data were processed

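RNA of 8 samples was hybridised to 1-colour Agilent arrays (Cy3, 100 ng of total RNA, per the labels). The deposited scanner files hold spot intensity from Agilent Feature Extraction, with background subtracted and, per the file headers, no scaling between arrays; the submitters' processing notes name version 10.7.1.1, and the headers of the arrays with IL-7 give 10.7.3.1. The deposited value table, also intensity, has the same distribution in every column, its method being not given in the sources used here. Of 62976 spots, those that were no control were averaged per probe. Spots flagged as non-uniform stayed out of that mean unless all spots of the probe were flagged. The 58 probes with all spots flagged on an array were left out of the fits. The 75th percentile of each array was subtracted from its log2 intensity. Of 55681 probes, 29811 were kept because in 1 group or more both arrays had them well above background, and the brightest kept probe stood for a gene (20635 genes). Gene names came from RefSeq accessions, symbols or synonyms (GRCm38.p6), and 22617 probes kept the name in the file. limma 3.58.1 (R 4.3.3) fitted the 4 groups together (lmFit, eBayes), with Benjamini-Hochberg adjustment over all genes and a threshold of 0.05; the fit was tested on simulated data. Because 2 arrays per group limit the precision, the 95% intervals use a moderated spread. It combines each gene's own spread within the 4 groups (4 degrees of freedom) with a value shared over genes (1.82 degrees of freedom). Replicates are separate clones of 1 line, and no more can be said of their spread.

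Every member is reported with all its probes; of each other pathway list, up to 3 called genes with the largest change in each direction were named, with exceptions named for counts of 5 or fewer, and for called members the 2 genes with the highest Pearson r. The members, pathway lists and markers were chosen with earlier results of these data known. Alternatives were median scaling, quantile normalization, normexp (offset 50), the deposited table, 2 other filters, 2 other probe rules, separate fits, a variance trend, a replicate block and leaving out each array. Added after the data were seen: the Ago2 synonym probes and diffSplice. A few genes of these lists are not reported here.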

Additional observations from a re-analysis of the deposited data

How the results depend on the processing

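Over 20 settings the 8 genes' changes were recomputed 792 times: 709 values kept their side of the threshold, 63 called values lost the call and 19 gained one. The sign turned in 35 values, in all but 1 between values that missed the threshold and count among the 709; the exception was Ago2 on withdrawal in control cells, 0.63 when a synonym probe stood for it. Of the 8 genes, the number called with IL-7 (1 as reported) was 0 with median scaling, quantile normalization, the deposited table, no dim filter, the mean of all probes, every probe tested, only the arrays compared, the replicate block and the synonym probes, 2 with normexp and with the stricter filter (above background on 8 of 8 arrays), and 3 with a variance trend. Without IL-7 (2 as reported) it was 1 with median scaling, quantile normalization, the deposited table, the mean of probes, the block and the synonym probes, and 0 with no dim filter and only the arrays compared. For the average (3) normexp gave 5. Leaving out 1 array gave 0 with IL-7 (each time), 0 to 1 without, 2 to 3 for the average, and 3 to 4 and 2 to 4 for withdrawal in control and miR-125b cells; without the first miR-125b array without IL-7 the last was 2. The difference stayed at 0 of 8 in each setting. Over all genes, counts ranged from 0 (only the arrays compared) to 1493 (variance trend) with IL-7, 9 (without the first miR-125b array without IL-7) to 2706 (normexp) without, 962 to 4634 for the average, 7224 to 13086 and 7219 to 13404 for withdrawal, and 0 to 92 for the difference. Deviations of same-numbered samples correlated at -0.098 to 0.112 over all genes, the highest being between miR-125b cells with and without IL-7. Whether same-numbered samples share a clone cannot be settled by this. The main fits took the 8 arrays as independent, and the replicate block gave each replicate number 1 shift across both vectors. A clone followed with and without IL-7 was not modelled. With that block 17 and 463 genes passed for the vector with and without IL-7. It ended the limma calls of Ago2 in both (adjusted p = 0.1 and 0.0836) and of Dgcr8 on withdrawal in miR-125b cells (adjusted p = 0.0614). With 2 arrays a group, small changes could be missed. All member probes were well above background, but the upstream Ago1 probe was dim, at signals of 40.5 to 122. Whether signal limited the calls was not tested.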

Other observations

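Transcripts that carry microRNA hairpins themselves were looked at after the values of the processing genes were known. The array has probes for 10 such host transcripts, named by their symbol, and 3 could be tested. Dleu2, the host of the miR-15a and miR-16-1 hairpins, read -1.08 and -0.52 in control and -1.01 and -1.11 in miR-125b cells with IL-7, and 1.12 and 0.87 against 0.67 and 0.50 without. Every array without IL-7 lay above every array with it, and Dleu2 rose 3.47-fold in control cells (limma adjusted p = 0.00176) and 3.13-fold in miR-125b cells (adjusted p = 0.00255). Its second kept probe gave smaller changes of 0.52 and 0.38 on the log2 scale. Mir17hg, the host of the miR-17-92 cluster, did not pass on withdrawal, at -0.17 in control cells (adjusted p = 0.315) and -0.30 in miR-125b cells (adjusted p = 0.106). Mirg, a host in the imprinted Dlk1-Dio3 region, was above background on 6 of 8 arrays and did not pass, at 1.71 (SE 0.83) in control cells. None of the 3 passed for the vector average. As for every withdrawal value here, slide and scan cannot be told apart from the treatment.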
